A study of Rattus norvegicus with 24 samples.

Results

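Voltage-gated sodium and calcium channels turn a change of membrane voltage into a current of sodium or calcium ions. The genes described here were the 39 protein-coding genes, of 35032 in the count table, whose symbols were Scn with a number and a or b, began with Cacna, or were Cacnb or Cacng with a number. They were 10 sodium channel alpha subunit genes, 4 sodium channel beta subunit genes, 9 calcium channel alpha1 subunit genes, 4 alpha2delta genes, 4 calcium channel beta genes and 8 genes of the Cacng family. Cacna1i matched by name but was listed as a processed transcript, and it was left out. The rule used names and biotypes, and the set was chosen with earlier results of these data known.

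mRNA had been sequenced from 2 brain regions of young male Sprague-Dawley rats, the hypothalamic paraventricular nucleus (PVN) and the central amygdaloid nucleus (CEA). Each region had 12 libraries, 3 in each of 4 groups. NC was the normal control without surgery. HT rats had a partial hepatectomy. HT+EA rats, called EA here, had the hepatectomy and electroacupuncture at Zusanli and Sanyinjiao before and after the operation. SEA rats had the hepatectomy and the needles with no current passed. All groups, NC included, were restrained during the needling sessions by the study's methods, and the tissue was taken a day after the last one. The 9 libraries of HT, EA and SEA in a region are called operated. The labels do not tie libraries to rats, so p-values measure the spread between these libraries. The comparisons asked how the regions differ, what surgery changed in each, and what electroacupuncture changed after surgery.

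The alpha subunit of a sodium channel, or the alpha1 subunit of a calcium channel, forms the pore and senses the voltage. Beta and alpha2delta subunits carry the pore to the membrane and shift its gating. Sodium channels start and carry the action potential at the axon initial segment and along the axon. Calcium channels of the P/Q and N types open at nerve endings and trigger transmitter release, while L-type and T-type channels shape firing in the cell body and dendrites. Magnocellular neurons of the PVN release vasopressin and oxytocin in bursts that depend on these currents. Most Cacng proteins are known as partners of AMPA-type glutamate receptors rather than of calcium channels.

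Total counts ran from 13152772 to 18607032 per library. Levels below are CPM, read counts scaled to a common library total and further by TMM factors, and a gene with no count could still hold up to 3 counts, or 0.161 to 0.228 CPM unscaled, by counting error alone. The 6 listed genes of PVN neuroendocrine neurons summed to 417 to 1333 CPM in the PVN and 34.7 to 181 CPM in the CEA, and all 6 passed the test as higher in the PVN. Of 5 listed genes of CEA neurons, Tac2 had no match among the gene symbols and 4 were tested. Prkcd and Penk were higher in the CEA and Nts and Pnoc were lower there. The 7 listed genes of striatal projection neurons summed to 161 to 268 CPM in the PVN and 1979 to 6043 CPM in the CEA. The 8 oligodendrocyte genes summed to 9924 to 16638 CPM in the PVN and 26326 to 43583 CPM in the CEA. Choroid plexus genes reached 1031, 364 and 1752 CPM in CEA NC 2, EA 1 and SEA 2, against 5.46 to 21.4 CPM in every other library. In such bulk tissue, fewer cells of a type and less RNA per cell cannot be told apart.

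Scn2b and Scn4b lie next to each other on chromosome 8, with 13.4 kb between them, and Scn3a and Scn9a belong to a sodium channel cluster on chromosome 3. They are shown because Scn4b differed between the regions and its neighbour Scn2b did not pass the test, and because Scn9a and Scn3a were both lower in the CEA but by different amounts. The stretches are the 150 bases before the RefSeq start of each gene in build GRCr8, read 5′ to 3′ on the gene's strand, with every CG dinucleotide in capitals.
Scn4b, chr8:54343723-54343872, plus strand: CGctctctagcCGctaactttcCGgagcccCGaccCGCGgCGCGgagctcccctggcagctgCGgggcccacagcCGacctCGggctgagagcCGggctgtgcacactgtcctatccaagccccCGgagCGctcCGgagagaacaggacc
Scn2b, chr8:54322233-54322382, plus strand: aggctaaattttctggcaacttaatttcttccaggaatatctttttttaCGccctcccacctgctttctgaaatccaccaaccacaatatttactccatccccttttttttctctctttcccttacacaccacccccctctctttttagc
Scn9a, chr3:71701378-71701527, minus strand: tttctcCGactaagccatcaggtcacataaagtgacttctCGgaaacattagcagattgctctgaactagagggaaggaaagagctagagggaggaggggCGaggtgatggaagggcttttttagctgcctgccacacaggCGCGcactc
Scn3a, chr3:70666199-70666348, minus strand: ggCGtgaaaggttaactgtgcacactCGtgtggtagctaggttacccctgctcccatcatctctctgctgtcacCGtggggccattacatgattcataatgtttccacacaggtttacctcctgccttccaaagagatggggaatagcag

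The Scn4b stretch held 15 CG dinucleotides and that of Scn2b held 1. Of all 33469 RefSeq rat promoters, 14.1% held as many as Scn4b or more over the same length, and 29.0% held as few as Scn2b or fewer. Scn9a held 5 and Scn3a held 3, near the median of 4 over all promoters. RefSeq promoters were matched by symbol for 27 of the 39 genes, in 30 stretches because some genes had several, and their median was 10 CG dinucleotides. The CG count is a description of these letters and was not set against the expression values.

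Levels per gene length, in CPM per kb without TMM scaling, were compared between genes. In the PVN the leading sodium channel alpha gene was Scn2a at 40.1 ± 7.81 CPM per kb (mean ± SD, n = 12), the subunit known from axon initial segments of principal neurons. Scn8a, typical of initial segments and nodes, followed at 17.8 CPM per kb, Scn3a, best known from the developing brain, at 12.03 and Scn1a, prominent in inhibitory interneurons, at 10.8. In the CEA the order was Scn8a at 26.1 ± 6.03, Scn2a at 24.8 ± 5.61 and Scn1a at 13.8 ± 5.43 CPM per kb, so Scn8a and Scn2a lay within their SDs of each other. Among the calcium channel alpha1 genes, the T-type gene Cacna1g led in the PVN at 20.7 ± 3.15 CPM per kb, and the P/Q-type gene Cacna1a led in the CEA at 16.3 ± 2.05.

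**Figure D1:**
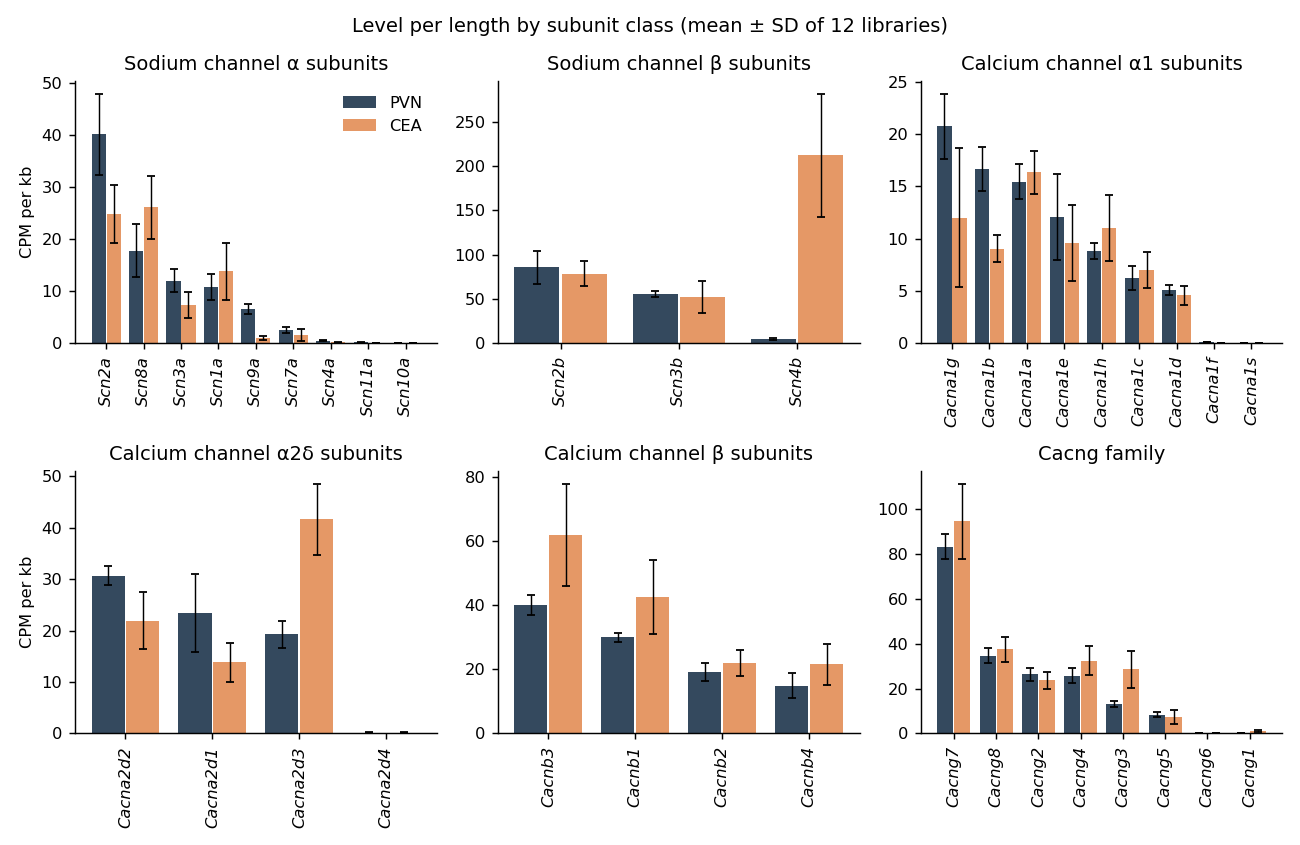
Level per gene length of 37 channel genes, in CPM per kb, by subunit class; bars are means and error bars the SD of 12 PVN (dark) or 12 CEA (light) libraries. Scn4b stands at 4.79 CPM per kb in the PVN and 212 in the CEA, and genes such as Scn4a, Scn10a, Scn11a, Cacna1f, Cacna1s, Cacna2d4 and Cacng6 are near 0 in both.

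Of the sodium channel beta genes, Scn2b stood at 85.8 ± 18.6 CPM per kb in the PVN and 78.6 ± 14.3 in the CEA, and Scn4b at 4.79 ± 0.809 and 212 ± 69.6. The leading alpha2delta gene was Cacna2d2 in the PVN at 30.7 CPM per kb and Cacna2d3 in the CEA at 41.6. Cacnb3 led the calcium channel beta genes in both regions, at 40.0 CPM per kb in the PVN and 61.8 in the CEA. Cacng7, which codes for a partner of AMPA receptors, led the Cacng family in both, at 83.2 and 94.5 CPM per kb. The sensory neuron genes Scn10a and Scn11a, the muscle genes Scn4a, Cacna1s and Cacng1, and the retinal genes Cacna1f and Cacna2d4 all stood under 5 CPM per kb in both regions.

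The CEA and the PVN differed in 29 of 38 channel genes tested with all 24 libraries and treatment as a covariate. In the CEA, 16 were higher (42.1%, against 26.9% of all 17768 genes tested) and 13 were lower (34.2%, against 29.4%), by edgeR's adjusted p. The median log2 fold change was 0.00 over the 38 genes and -0.01 over all genes tested. Both directions were present in most subunit classes, but the 4 calcium channel beta genes were all higher in the CEA and 7 of the 10 sodium channel alpha genes were lower. Cacna1s, the skeletal muscle L-type gene, was not tested because it held 48 counts in all PVN libraries together and 48 in all CEA libraries.

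**Figure D2:**
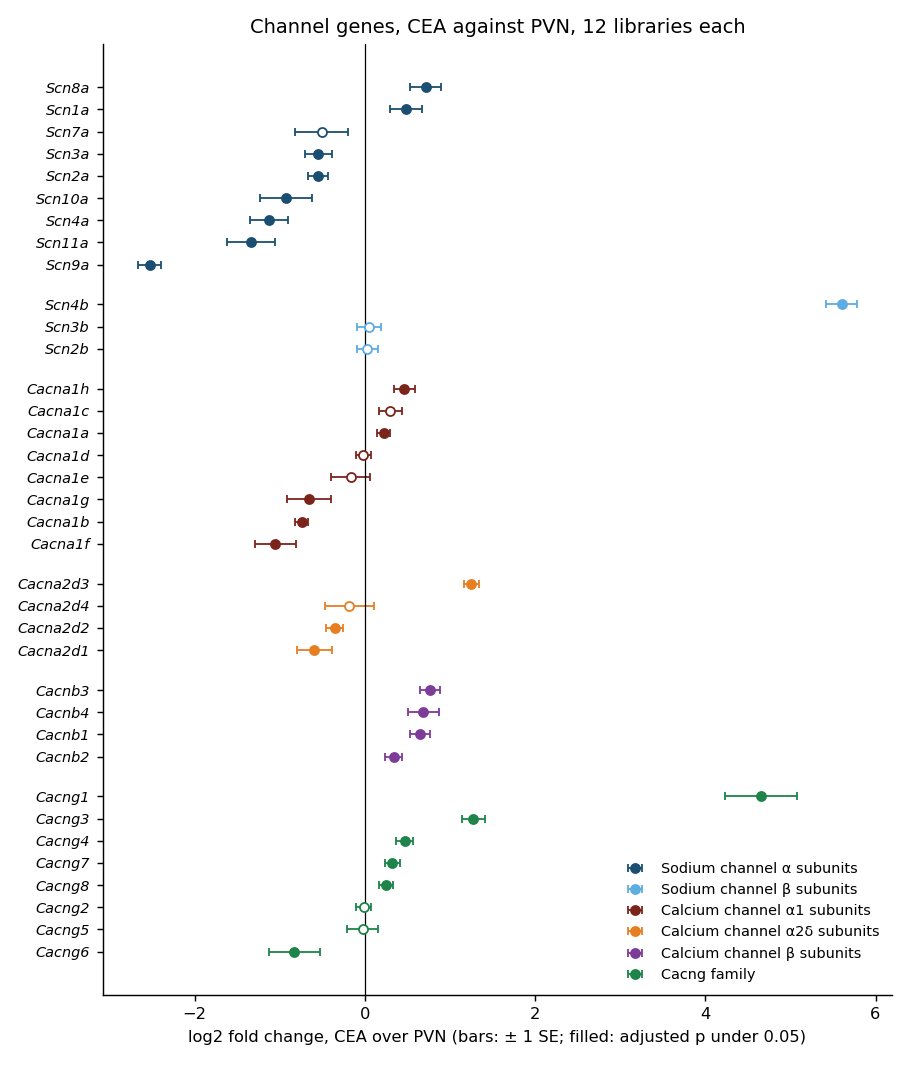
Log2 fold change of the CEA over the PVN for 36 channel genes tested, with bars of 1 SE, grouped by subunit class; filled points passed an edgeR adjusted p of 0.05. Scn4b at 5.60 and Cacng1 at 4.65 lie farthest to the right, Scn9a at -2.53 farthest to the left.

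Scn4b differed most. Its subunit is linked to the alpha subunit by a disulfide bond, is known for the resurgent sodium current, and is abundant in striatal projection neurons. Its level was 12.5 CPM at the lowest, 19.8 at the median and 24.7 at the highest in the PVN, and 505, 872 and 1588 CPM in the CEA. Every CEA library lay above every PVN library by a wide margin. This was a 48.5-fold difference, or 5.60 ± 0.18 on the log2 scale (± SE throughout for fold changes, edgeR adjusted p = 1.18e-16). By treatment, the mean CPM ratio ran from 36.9 in EA over 47.7 in SEA and 50.9 in HT to 62.2 in NC. The striatal marker genes in the CEA libraries are given beside it above and below, and their part in the difference was not tested.

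Scn2b and Scn3b behaved differently from Scn4b. Scn2b, next to Scn4b on the chromosome, differed by 0.02 ± 0.12 and Scn3b by 0.04 ± 0.14 on the log2 scale, with edgeR adjusted p of 0.881 and 0.813.

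Scn9a was the sodium channel alpha gene with the largest regional difference. It is best known from pain-sensing neurons and is also found in hypothalamic neurosecretory cells. It ranged from 44.4 CPM over a median of 58.3 to 71.3 CPM in the PVN, and from 4.80 over 10.9 to 15.5 CPM in the CEA. No CEA library reached the lowest PVN library. The CEA was lower by a log2 fold change of -2.53 ± 0.13 (edgeR adjusted p = 2.32e-13), or 5.78-fold.

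Of the 4 large brain sodium channel alpha genes, Scn2a and Scn3a were lower in the CEA, both with a log2 fold change of -0.55, and Scn8a (0.71 ± 0.18) and Scn1a (0.49 ± 0.19) were higher. Scn8a was 41.5, 128 and 143 CPM in the PVN and 90.8, 191 and 270 CPM in the CEA, with overlap. In the order named, the edgeR adjusted p were 0.000523, 0.00528, 0.00159 and 0.0318. Scn1a, Scn9a, Scn2a and Scn3a lie in 1 chromosome cluster with Scn7a, and their regional differences had both signs. Scn7a, known as a sensor of sodium level in glial cells, did not pass (-0.51 ± 0.31, edgeR adjusted p = 0.171). Scn4a, Scn10a and Scn11a were lower in the CEA by log2 fold changes of -1.13, -0.92 and -1.34, at mean levels from 0.252 to 3.40 CPM in both regions. Scn10a did not pass with the operated libraries alone. How reads shared by these similar genes were counted is not given in the sources used here, so small counts of one member beside a large one are uncertain.

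**Figure D3:**
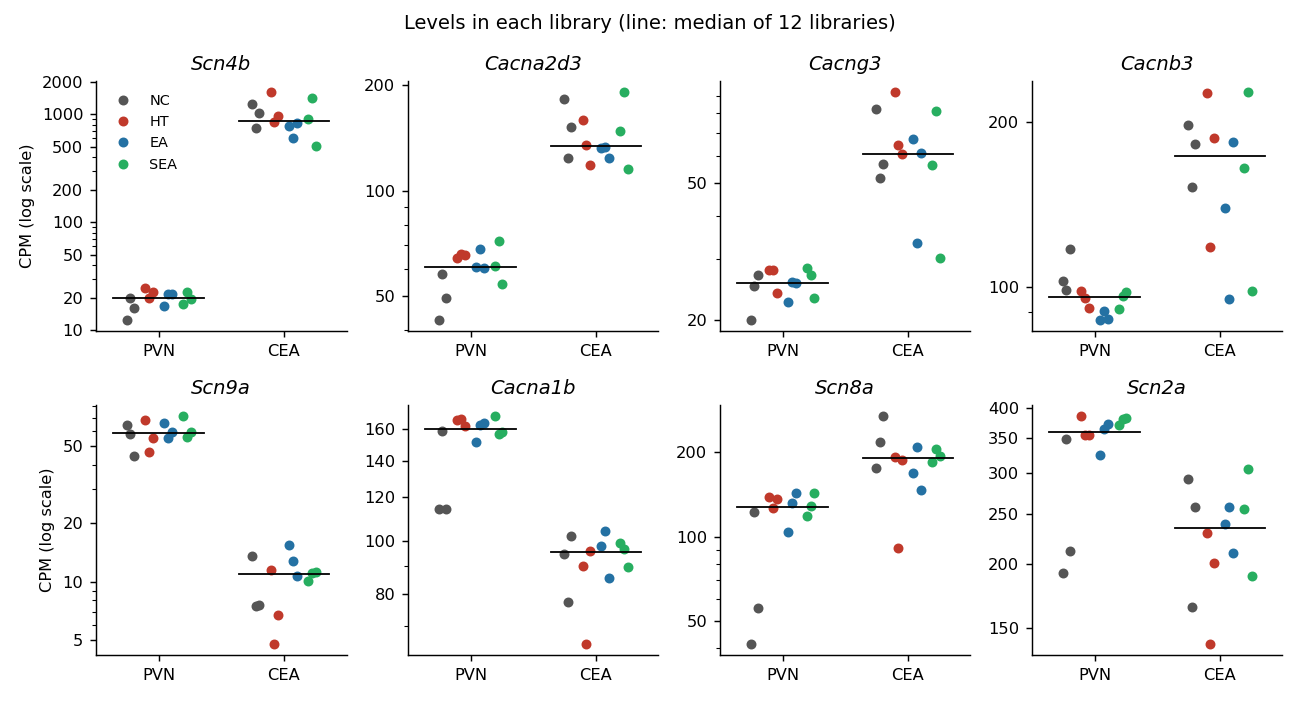
CPM on a log axis in each of the 24 libraries for 8 channel genes, coloured by treatment group, with a line at the median of 12 libraries. Scn4b, Cacna2d3 and Cacng3 are higher in all CEA than in all PVN libraries, Scn9a and Cacna1b lower in all, and Cacnb3, Scn8a and Scn2a overlap.

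The calcium channel pore genes differed in both directions. The N-type gene Cacna1b, a channel of nerve endings, was 114, 160 and 169 CPM in the PVN and 65.0, 95.3 and 104 CPM in the CEA. The regions did not overlap and the CEA was 1.67-fold lower (log2 fold change -0.74 ± 0.07, edgeR adjusted p = 9.95e-09). Cacna1a, the P/Q-type gene of nerve endings, was higher in the CEA by 0.22 ± 0.07 on the log2 scale (edgeR adjusted p = 0.0128), with overlapping libraries. The T-type genes had opposite signs: Cacna1g was lower by -0.66 ± 0.26 and Cacna1h higher by 0.46 ± 0.12 (edgeR adjusted p = 0.0321 and 0.00280). The brain L-type genes Cacna1c (0.30 ± 0.13, edgeR adjusted p = 0.0611) and Cacna1d (-0.02 ± 0.09, 0.883) and the R-type gene Cacna1e (-0.17 ± 0.23, 0.564) did not pass. Cacna1f, the retinal L-type gene, was lower in the CEA at 0.344 against 0.724 CPM (log2 fold change -1.06 ± 0.24, edgeR adjusted p = 0.000677), resting on 65 and 148 counts over 12 libraries each.

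The alpha2delta genes did not share a direction. Cacna2d3, whose product promotes the surface level of release-site channels, was 42.9, 60.8 and 72.002 CPM in the PVN and 115, 134 and 191 CPM in the CEA. All CEA libraries lay above all PVN libraries, and the log2 fold change was 1.25 ± 0.09 (edgeR adjusted p = 5.64e-11). Cacna2d1 and Cacna2d2, whose products bind gabapentin, were lower in the CEA by -0.60 ± 0.20 and -0.36 ± 0.10 (edgeR adjusted p = 0.0160 and 0.00518). Cacna2d4 stood at 0.457 CPM in the CEA and 0.514 in the PVN and did not pass (edgeR adjusted p = 0.612).

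All 4 calcium channel beta genes, whose cytosolic products bind the alpha1 subunit and bring it to the membrane, were higher in the CEA. The log2 fold changes were 0.77 ± 0.12 for Cacnb3, 0.69 ± 0.18 for Cacnb4, 0.64 ± 0.12 for Cacnb1 and 0.34 ± 0.10 for Cacnb2, with edgeR adjusted p from 5.56e-06 to 0.00474. Cacnb3 was 87.2, 95.9 and 117 CPM in the PVN and 95.1, 173 and 226 CPM in the CEA, so the lowest CEA libraries lay within the PVN range.

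In the Cacng family, Cacng3, an AMPA receptor partner of the forebrain, was 20.0, 25.7 and 28.3 CPM in the PVN and 30.2, 60.9 and 91.9 CPM in the CEA. The ranges did not overlap, and the log2 fold change was 1.27 ± 0.14 (edgeR adjusted p = 2.88e-08). Cacng4, Cacng7 and Cacng8 were higher in the CEA by 0.47, 0.32 and 0.25 on the log2 scale, while the cerebellar AMPA receptor partner gene Cacng2 (-0.02 ± 0.09) and Cacng5 (-0.03 ± 0.19) did not pass. Cacng1, the gamma subunit of muscle calcium channels, held 10 counts over the 12 PVN libraries and 272 over the 12 CEA libraries, a ratio of 26.9 per depth with an exact 95% counting interval of 14.4 to 56.8. Its CEA libraries ran from 0.602 to 2.64 CPM and its PVN libraries from 0 to 0.193 CPM, without overlap. Cacng6 was lower in the CEA at 0.276 against 0.495 CPM (log2 fold change -0.83 ± 0.30, edgeR adjusted p = 0.0226). It did not pass without PVN HT 3 or in a fit blocked on replicate number. In SEA its CEA mean was 1.09 times the PVN mean.

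Over all 38 genes tested, 4 were higher in every CEA than in every PVN library (10.5%, against 6.48% of all genes tested) and 3 lower (7.89%, against 7.87%). The higher genes were Scn4b, Cacng1, Cacng3 and Cacna2d3, and Scn9a and Cacna1b were among the lower.

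Within the NC group alone, 13 of 35 channel genes were higher in the CEA (37.1%, against 12.7% of 16748 genes) and 4 lower (11.4%, against 13.7%) by edgeR's adjusted p, with 3 libraries a side. Scn9a, Scn11a and Cacna1f were among the lower. The median log2 fold change was 0.45 over these 35 genes and -0.01 over all genes tested. The count rested on single libraries: 5 were higher without PVN NC 1 and without CEA NC 3, 6 without PVN NC 3 and without CEA NC 2, and 17 without PVN NC 2. Over all genes the share called higher moved too, to 6.98% without PVN NC 1, 7.15% without CEA NC 3, 7.09% without PVN NC 3, 8.01% without CEA NC 2 and 18.4% without PVN NC 2. The lower count fell to 1 without each of PVN NC 1, PVN NC 3, CEA NC 2 and CEA NC 3, where 7.12% to 8.32% of all genes were lower. In the fit blocked on replicate number, Scn11a no longer passed, and 14 were higher and 3 lower, against 13.9% and 13.6% of all genes.

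PVN NC 1 and NC 3 stood apart from PVN NC 2 and from the operated PVN libraries in many channel genes. They were the 2 lowest of 12 PVN libraries in 17 of 37 channel genes, or 45.9%, against 18.6% of all genes tested. The same 2 libraries had the highest mitochondrial share of the PVN libraries, at 8.77% and 8.62% of counts, against 7.58% in NC 2 and 7.07% to 8.01% in the operated libraries. Cacna2d1 was 31.4, 101 and 29.0 CPM in PVN NC 1, 2 and 3, and 85.2 to 115 CPM in the 9 operated libraries. Cacna1e was 30.1, 104 and 29.2 CPM in the same 3 libraries and 73.6 to 116 CPM after surgery. Both genes thus had 1 control within the operated range and a pair far below it. Scn8a followed with 41.5, 123 and 55.6 CPM against 104 to 143 CPM. Scn2a was 192, 348 and 212 CPM against 324 to 386 CPM. Cacnb4 was 24.8, 57.7 and 23.1 CPM against 51.9 to 65.7 CPM.

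Other channel genes did not show these low controls. Scn3b was 215, 199 and 194 CPM in PVN NC and 187 to 225 CPM after surgery. Scn9a was 64.2, 57.6 and 44.4 CPM against 46.5 to 71.3 CPM, and Cacna1h was 67.3, 67.0 and 57.9 CPM against 60.1 to 79.5 CPM. All channel genes together took 0.231%, 0.317% and 0.249% of the counts in PVN NC 1, 2 and 3, and 0.294% to 0.338% in the operated PVN libraries. Pan-neuronal markers summed to 4588, 4246 and 5039 CPM in these 3 controls, against 4361 to 4807 CPM after surgery. At an unadjusted p, 2 of the 8 pan-neuronal genes were higher in the operated libraries than in NC. Cortical and hippocampal excitatory neuron genes summed to 196, 140 and 183 CPM in PVN NC 1, 2 and 3. They summed to 133 to 151 CPM in the operated PVN libraries. Other marker lists differed at an unadjusted p: of the 6 PVN neuroendocrine genes, 3 were lower in HT than in NC at an unadjusted p (median log2 fold change -0.57), and their sum was 1059, 1002 and 1333 CPM in NC and 908, 953 and 417 CPM in HT. Blood genes summed to 1333, 970.1 and 968 CPM in NC and 731, 768 and 511 CPM in HT, with both rows of Hba-a2, a globin, lower at that threshold, and 2 of the 6 astrocyte genes were lower at that threshold. Of the 4 thalamus genes 1 was higher (median 0.56), Slc17a6 was higher by 0.29 ± 0.13, and the 3 GABA neuron genes had a median of -0.23 with 0 at that threshold. Of the 3 choroid plexus genes tested 1 was lower (median -0.54). The choroid plexus list summed to 9.99, 10.2 and 9.29 CPM in NC and 7.18, 5.46 and 5.55 CPM in HT. Of the 5 cortical and hippocampal genes tested 1 was lower (median 0.35), and of 4 CEA neuron genes tested 1 was lower (-0.26). Of 6 microglia genes 1 was higher (0.00). None of these marker genes passed edgeR's adjusted threshold. Gene length moved with the difference: over all genes tested, the median log2 fold change of operated PVN over NC ran from -0.12 for genes under 2 kb to 0.18 for genes of 6 kb and over. The channel genes had a median length of 4741 bases against 2218 for all genes tested. In the group of 6 kb and over, the median was 0.30 for 16 channel genes. The part of length, of RNA quality, of cell makeup and of these libraries in the comparisons was not tested.

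**Figure D4:**
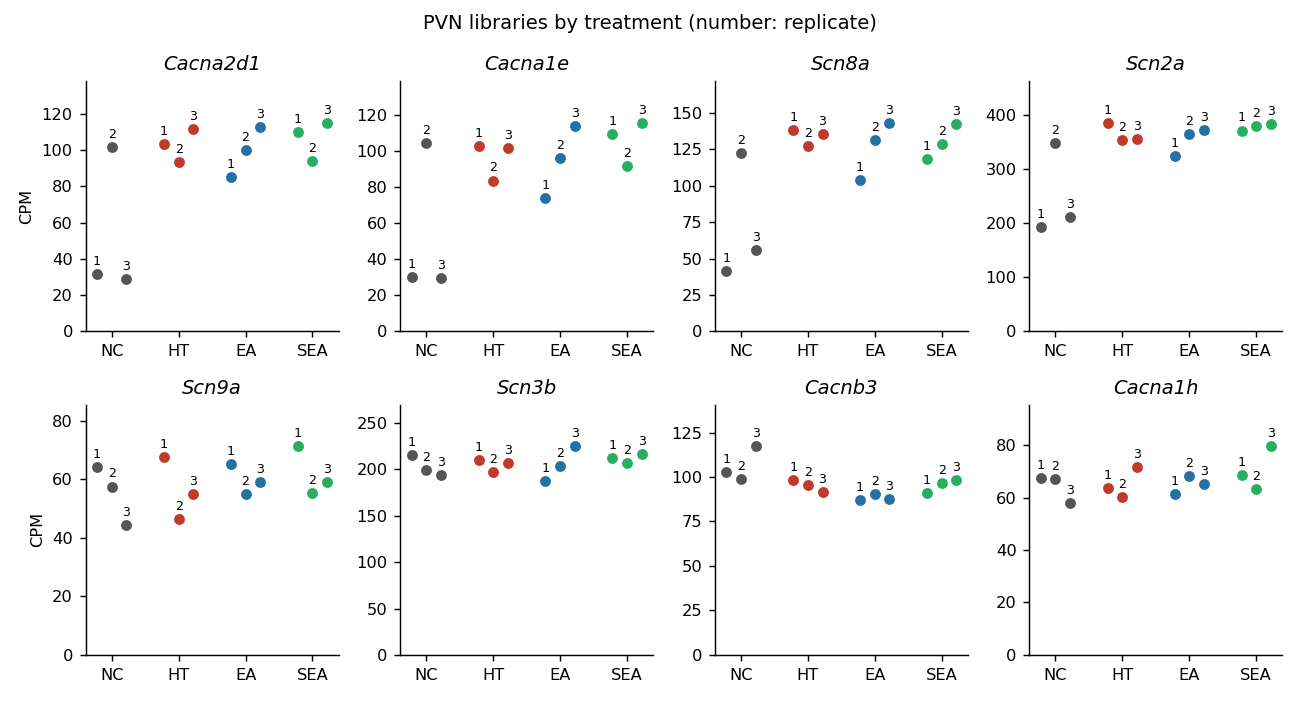
CPM in each PVN library by treatment group for 8 channel genes, with the replicate number above each point. In Cacna2d1, Cacna1e, Scn8a and Scn2a, NC 1 and NC 3 lie below all other libraries, whereas Scn9a, Scn3b, Cacnb3 and Cacna1h do not show this pair at the bottom.

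Comparing HT with NC in the PVN, no channel gene of 35 passed edgeR's adjusted threshold (against 0.012% of all genes tested higher and 0.0% lower), and DESeq2 called none either. At an unadjusted p under 0.05, 11 were higher in HT (31.4%, against 5.69% of 16727 genes) and 0 lower (against 5.35%). Those 11 were Scn1a, Scn2a, Scn3a, Scn8a, Scn4b, Cacna1a, Cacna1b, Cacna1c, Cacna2d3, Cacnb2 and Cacng2. Scn1a was 55.3, 127 and 83.7 CPM in NC and 143, 137 and 151 CPM in HT, a log2 fold change of 0.70 ± 0.26 (edgeR adjusted p = 0.418). Cacna2d3 was 42.9, 57.9 and 49.5 CPM in NC and 64.3, 66.0 and 65.4 CPM in HT (0.38 ± 0.12, edgeR adjusted p = 0.418). Cacna1b was 114, 159 and 114 CPM in NC and 166, 167 and 162 CPM in HT (0.35 ± 0.14, edgeR adjusted p = 0.418). These 3 had the smallest unadjusted p among the genes without overlap. With 1 library left out, Scn1a ran from 0.44 to 1.04, Cacna2d3 from 0.27 to 0.49 and Cacna1b from 0.26 to 0.52. Each was lowest without PVN NC 1 and highest without PVN NC 2. Over all 35 channel genes, 10 were higher in HT without overlap (28.6%, against 8.88% of all genes tested), and Cacnb3 was lower without overlap (2.86%, against 8.23%). Without PVN NC 2, 16 channel genes passed the adjusted threshold as higher in HT, while over all genes 12.6% passed as higher and 7.56% as lower. Without any other single library, 0 did.

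Pooling the operated groups against NC in the PVN, with the same NC and HT libraries included, left 0 of 37 channel genes past edgeR's adjusted threshold (against 0.0291% of all genes tested higher and 0.0349% lower). At an unadjusted p, 18 were higher (48.6%, against 15.6% of 17211 genes) and 1 lower (2.70%, against 14.2%). Of the 18 higher, 10 were among the 16 channel genes of 6 kb and over, a length class in which 42.3% of all genes were higher at that threshold. The median log2 fold change was 0.20 over the channel genes and -0.02 over all genes. DESeq2 called 12 higher and 1 lower. Over all genes it called 1520 higher and 872 lower, where edgeR called 5 and 6. Without PVN NC 2, edgeR called 18 higher and 2 lower, and over all genes 18.2% higher and 15.5% lower. The log2 fold changes were 0.92 ± 0.32 for Cacna2d1, 0.82 ± 0.25 for Scn8a, 0.59 ± 0.17 for Scn2b and 0.54 ± 0.14 for Scn2a, with edgeR adjusted p of 0.0908, 0.0789, 0.0778 and 0.0778. Of the 37 channel genes 28 had a log2 fold change above 0, and the only one lower at an unadjusted p was Cacnb3, at 103, 98.7 and 117 CPM in NC and 87.2 to 98.3 CPM after surgery. Its groups did not overlap, as in 2.03% of all genes in that direction, and its log2 fold change was -0.19 ± 0.06 (edgeR adjusted p = 0.0779). It was -0.11 without PVN NC 3 (edgeR adjusted p = 0.319) and -0.24 without PVN NC 2 (edgeR adjusted p = 0.00629). HT with NC and the pooled comparison share the 3 NC and the 3 HT libraries, so their likeness is partly built in.

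Electroacupuncture was compared with surgery alone in the PVN, and 0 of 34 channel genes passed edgeR's adjusted threshold (against 0.0961% of all genes tested lower), nor did any in DESeq2. At an unadjusted p, 3 were lower in EA (8.82%, against 3.57% of 16641 genes) and 0 higher (against 2.1%). Cacna1a was 149.8, 157.1 and 131.7 CPM in HT and 124.5, 128.1 and 120.1 CPM in EA, without overlap, a log2 fold change of -0.23 ± 0.07 (edgeR adjusted p = 0.617). Scn1a was 143.4, 137.2 and 150.6 CPM in HT and 106.2, 122.0 and 136.8 CPM in EA (-0.24 ± 0.09, edgeR adjusted p = 0.783). The highest EA value of Scn1a lay just under the lowest HT value. Cacng7 was 174.6, 174.5 and 179.3 CPM in HT and 153.8, 169.5 and 156.5 CPM in EA (-0.14 ± 0.05, edgeR adjusted p = 0.804). Without overlap, 4 of 34 channel genes were lower in EA (11.8%, against 5.85% of all genes), these 3 and Cacnb3. In the same comparison 3 of 6 PVN neuroendocrine genes were higher in EA at an unadjusted p (median log2 fold change 0.44), with sums of 1121, 1038 and 896 CPM in EA and PVN HT 3 apart from the other HT libraries at 417 CPM. Of the 3 choroid plexus genes tested 2 were higher (median 0.57), with sums of 9.40, 10.2 and 9.10 CPM in EA and 7.18, 5.46 and 5.55 CPM in HT. Of the 4 blood gene rows tested 1 was higher (median 0.29). Blood genes summed to 1306, 1029 and 788 CPM in EA and 731, 768 and 511 CPM in HT. None of these passed the adjusted test, and their part in the channel values was not tested.

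With needles but no current, SEA against HT in the PVN left 0 of 34 channel genes past either threshold by edgeR, against 2.41% of 16634 genes higher and 1.97% lower at an unadjusted p. Cacna1d was lower in SEA than in HT without overlap, as 1 of 34 channel genes (2.94%, against 4.74% of all genes). Against SEA, EA had 1 channel gene lower at an unadjusted p (2.94%, against 3.0% of 16606 genes) and 0 higher (against 2.2%), and 0 past the adjusted threshold. That gene was Cacna1a, at 135, 141 and 136 CPM in SEA against 124.5, 128.1 and 120.1 CPM in EA (-0.14 ± 0.05, edgeR adjusted p = 0.917). Cacna1a and Cacnb3 were lower in EA than in both other operated groups without overlap, at differences that did not pass the adjusted test. The share of all genes lower in EA than in both groups is not given here. Against SEA these were 2 of 34 channel genes (5.88%, against 5.02% of all genes). The log2 fold change of Cacnb3 was -0.10 ± 0.05 against either group (edgeR adjusted p = 0.908 against HT and 0.949 against SEA). Cacna1d was higher in EA than in SEA without overlap (0.13 ± 0.07, edgeR adjusted p = 0.949), as 1 of 34 channel genes (2.94%, against 5.14%). Of the 6 PVN neuroendocrine genes, 2 were higher in SEA than in HT at an unadjusted p (median log2 fold change 0.36). In EA against SEA, 0 of them differed at that threshold (median 0.01). EA against HT and EA against SEA share the EA libraries. SEA against HT and EA against SEA share the SEA libraries.

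In the CEA no channel gene passed edgeR's adjusted threshold in any treatment comparison, and DESeq2 gave 0 as well. HT against NC had 0 of 33 channel genes at an unadjusted p (against 2.35% of 16413 genes higher and 1.41% lower), and operated against NC 0 of 35 (against 1.55% and 1.27% of 17046 genes). EA against HT had 1 of 33 higher (3.03%, against 1.82% of 16479 genes) and 1 lower (3.03%, against 1.37%). Scn4b was 1588, 848 and 965 CPM in HT and 780, 602 and 834 CPM in EA (log2 fold change -0.63 ± 0.27, edgeR adjusted p = 0.930). The groups did not overlap, as in 4.03% of all genes in that direction. The lowest EA value was that of CEA EA 2, where mitochondrial genes took 3.80% of the counts, against 10.1% to 14.4% in the other CEA libraries. Without it the log2 fold change was -0.50, and without CEA HT 1 it was -0.31. Striatal marker genes were also at lower sums in EA: they summed to 6043, 3686 and 3533 CPM in HT and 3266, 2112 and 3391 CPM in EA, without overlap, with a median log2 fold change of -0.62 and 2 of 7 lower at an unadjusted p. Marker genes of cortical and hippocampal excitatory neurons summed to 2131, 1945 and 1995 CPM in HT and 1114, 604 and 1395 CPM in EA, also without overlap, with a median of -1.33 and 2 of 5 lower. The part of both lists in the Scn4b difference was not tested. SEA against HT had 0 channel genes at an unadjusted p (against 1.38% of all genes higher and 1.69% lower), and so had EA against SEA (against 1.15% and 0.839%).

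Most channel genes, like most genes, varied more among the CEA libraries than among the PVN libraries. In all 31 channel genes at 5 CPM or more, the coefficient of variation over the 12 CEA libraries was above that over the 9 operated PVN libraries, with medians of 27.2% and 8.40%. Over all 12 PVN libraries the median was 13.3%, and 27 of the 31 genes varied more in the CEA, while Cacna2d1, Scn8a, Scn2b and Cacna1b varied more in the PVN. Of all 12334 genes at that level, 91.3% varied more in the CEA than in the operated PVN libraries and 76.5% more than in all 12, with medians of 15.6% in the CEA, 7.86% in the operated PVN and 11.2% in all PVN libraries. Scn7a ran from 1.63 CPM in CEA HT 1 to 17.97 CPM in CEA SEA 3, an 11.0-fold range. Cacna1g ran from 21.7 to 166 CPM and Scn4b from 505 to 1588 CPM between the same 2 libraries, Scn4b in the opposite sense. CEA HT 2 held the lowest value in 14 of these 31 genes, or 45.2%, against 25.6% of 12334 genes at that level. Among them were Scn1a, Scn2a, Scn3a, Scn8a, Cacna1a and Cacna2d1.

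Marker genes of striatal and of cortical and hippocampal excitatory neurons moved with Scn4b and against Cacna1g in the libraries named next. The striatal genes summed to 6043 CPM in CEA HT 1 and 6039 CPM in CEA SEA 2, where Scn4b was 1588 and 1424 CPM and Cacna1g 21.7 and 40.1 CPM. They summed to 1979 CPM in CEA SEA 3 and 2112 CPM in CEA EA 2, where Scn4b was 505 and 602 CPM and Cacna1g 166 and 164 CPM. The cortical and hippocampal genes summed to 2131 and 1845 CPM in CEA HT 1 and SEA 2 and to 597 and 604 CPM in CEA SEA 3 and EA 2, against 133 to 196 CPM in the PVN libraries. Slc17a6, a marker of hypothalamic and thalamic glutamate neurons, ran the other way, at 6.40 CPM in CEA HT 1 and 287.5 CPM in CEA SEA 3. So did the 4 thalamus genes, with sums of 43.5 and 78.0 CPM in CEA HT 1 and SEA 2. Their sums were 408 and 384 CPM in CEA SEA 3 and EA 2. In CEA HT 2, lowest in 14 of the 31 genes, the striatal sum was 3686 CPM, near the CEA median of 3568 CPM. Its cortical and hippocampal sum was 1945 CPM, against a CEA median of 1500 CPM. The 2 highest striatal sums were in HT and SEA and the 2 lowest in SEA and EA. In the striatal and in the cortical and hippocampal list, all HT sums lay above all EA sums. The part of dissection or cell makeup in these values was not tested.

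**Figure D5:**
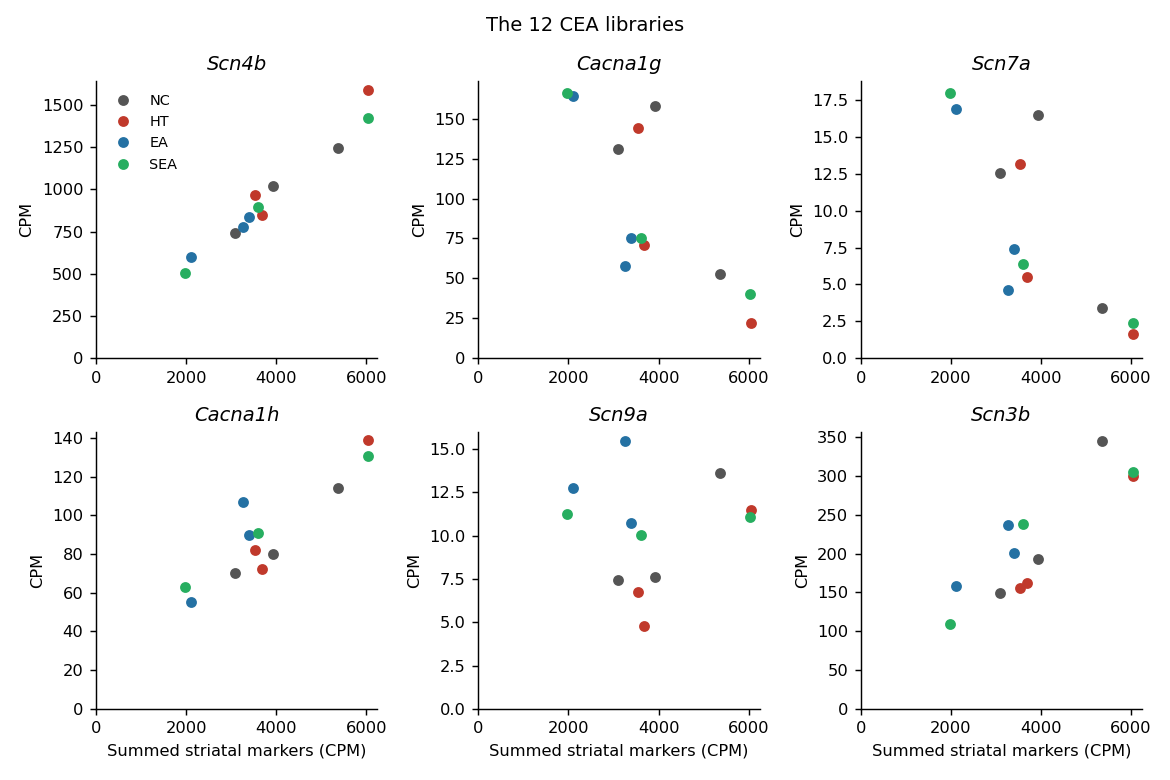
CPM of 6 channel genes in the 12 CEA libraries against the summed CPM of 7 striatal projection neuron markers, coloured by treatment group. Scn4b, Cacna1h and Scn3b are high and Cacna1g and Scn7a low in the libraries with the highest marker sums, while Scn9a shows no such order.

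The effect of surgery was also compared between the regions. For HT over NC, 0 of 37 channel genes passed edgeR's adjusted test of the difference between the regions. At an unadjusted p, 10 had a lower effect in the CEA (against 7.24% of 17405 genes) and 0 a higher one (against 4.84%). Among these 10, Cacna2d1 differed most, by -1.44 ± 0.62 on the log2 scale, followed by Scn8a at -1.36 ± 0.52 and Scn1a at -1.33 ± 0.47, each with an edgeR adjusted p of 0.413. The median was -0.43 over the channel genes and 0.01 over all genes. Without PVN NC 2, 3 passed the adjusted threshold as lower, as did 3.67% of all genes. Cacna2d1, Scn8a and Scn1a all had their lowest CEA value in CEA HT 2. Without that library, 808 of 17627 genes had a lower effect at an unadjusted p, against 1260 of 17405 with it. Over all genes, median log2 fold changes of HT over NC moved with gene length in opposite senses. From under 2 kb to 6 kb and over, they ran from -0.10 to 0.17 in the PVN. In the CEA they ran from 0.10 to -0.12. The part of length and of single libraries was not tested. For EA over HT, the difference between the regions had 0 of 36 channel genes at an unadjusted p, against 2.94% of 17299 genes higher and 1.58% lower.

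The ratio of the regional means differed between NC and the operated groups in some genes, with the difference not past the adjusted test and PVN NC 1 and NC 3 low. Cacna2d1 had a CEA mean of 1.23 times the PVN mean in NC and 0.454, 0.564 and 0.616 times in HT, EA and SEA. In PVN NC 2, Cacna2d1 stood at 101 CPM, above the 3 CEA NC libraries at 47.8 to 80.01 CPM. Cacna1e had ratios of 1.43, 0.697, 0.797 and 0.799 in the same order. Scn2b had 1.52, 0.842, 0.873 and 0.966. By contrast Scn9a stayed between 0.136 and 0.217 and Cacng3 between 2.15 and 2.73 over the 4 groups. With the operated libraries alone, 14 channel genes were higher and 11 lower in the CEA, against 16 and 13 with all libraries. Over all genes, 27.2% were higher and 25.6% lower with the operated libraries alone.

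Genes that work with these channels were read in the same fits. Of 12 genes for sodium channel partners at the axon initial segment and node, 7 were higher in the CEA and 2 lower, where 26.9% of all genes were higher and 29.4% lower. Ank3, the ankyrin that anchors sodium channels, was higher by 0.52 ± 0.08 and Nfasc by 0.51 ± 0.08 on the log2 scale, and the contactin gene Cntn1 was lower by -0.37 ± 0.09 (edgeR adjusted p = 7.32e-06, 5.10e-06 and 0.00139). Of 19 calcium channel modulators and release-site genes, 12 were higher in the CEA and 6 lower. Rem2, a small GTPase that inhibits calcium channels, was higher by 1.88 ± 0.11, the active-zone gene Rims1 by 1.19 ± 0.13, and the inhibitory channel partner Cbarp was lower by -1.06 ± 0.05.

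Of the 6 intracellular calcium release channel genes, 4 were higher in the CEA and 0 lower. The inositol trisphosphate receptor gene Itpr1 rose from a mean of 157 CPM in the PVN to 697 CPM in the CEA (2.17 ± 0.17, edgeR adjusted p = 2.63e-10). Of the 3 measured genes of the sodium leak channel complex, Nalcn was lower in the CEA (-0.81 ± 0.11) and Unc79 and Unc80 did not pass. None of these partner genes passed edgeR's adjusted threshold in a treatment comparison. At an unadjusted p, operated against NC in the PVN had 6 of the 12 axonal genes higher and 1 lower, and 6 of the 19 modulators higher and 3 lower, against 15.6% of all genes higher and 14.2% lower. The leak channel genes showed the same low controls as Cacna2d1, with sums of 239, 482 and 247 CPM in PVN NC 1, 2 and 3 against 414 to 512 CPM in the operated PVN libraries.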

How the data were processed

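mRNA was sequenced from 2 brain regions of rats in 4 treatment groups, 3 libraries each. The authors deposited raw read counts per gene for 35032 genes; their notes name HISAT2 and featureCounts, with versions not given in the sources used here. The genome build was not settled: the largest gene end on chromosome 1 was 282724300, and the notes and the methods name different builds. Apart from that value, no gene coordinates deposited with the counts are printed. The 13.4 kb between Scn2b and Scn4b was taken from those coordinates. A repeated header line (1) was dropped. Groups came from the labels.

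Counts were tested with edgeR 4.0.16 in R 4.3.3: the quasi-likelihood test after filterByExpr and TMM scaling, Benjamini-Hochberg adjustment over all genes tested and a threshold of 0.05. SE was derived from the fold change and F. The fits were tested on simulated data. Total counts of 13152772 to 18607032 make 1 count 0.0537 to 0.0760 CPM, and intervals cover counting error only. Alternatives were DESeq2 1.42.0, RLE scaling, no filter, a replicate block, a 4-group fit, an unadjusted p, operated libraries only and leaving out each library. Leaving out the choroid plexus libraries, or PVN NC 1, PVN NC 3 and CEA EA 2, was added after seeing the data. No pair of libraries was identical.

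The members and gene lists were chosen with earlier results of these data known. Named in full were up to 8 genes per direction between regions by fold change, and in treatment comparisons up to 3 per direction by unadjusted p without overlap. Libraries that stood apart, other genes and sequences shown were picked after seeing values. Same-numbered libraries deviated together most, by the lowest r, in CEA NC with CEA HT (r = 0.28, 0.18 and 0.34). PVN NC with CEA NC followed (r = 0.31, 0.11 and 0.17). In every other pair of groups the lowest r was 0.0406 or less. Results that need items withheld from this text are not reported here.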

Additional observations from a re-analysis of the deposited data

How the results depend on the processing

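Between the regions with all libraries, the counts of channel genes stayed at 14 to 17 higher and 11 to 13 lower under every alternative, and no log2 fold change of a named gene reversed. Cacng6 lost its call with the replicate block (-0.83), without PVN HT 3 and without PVN NC 1, PVN NC 3 and CEA EA 2 (few mitochondrial counts), and Scn10a with operated libraries only. Within NC, leaving out 1 library gave 5 to 17 higher and 1 to 4 lower, and the replicate block gave 14 and 3. In the PVN, leaving out 1 library gave 0 to 16 higher for HT against NC, and 0 to 18 higher and 0 to 2 lower for operated against NC, where the counts above 0 came without NC 2. DESeq2 gave 12 higher and 1 lower for operated against NC. At an unadjusted p, the counts were 11 higher for HT against NC, 18 higher and 1 lower for operated against NC, 3 lower for EA against HT and 1 lower for EA against SEA. In the CEA, EA against HT had 1 higher and 1 lower at that threshold. For the HT effect between regions, 10 were lower at an unadjusted p, and 0 to 3 at the adjusted one when 1 library was left out. The replicate block left 0 calls in every treatment comparison. The cause of these changes was not tested.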
